A study of Homo sapiens with 12 samples.

Results

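The mRNAs of 10 genes of the FAS, TRAIL and TNF receptor pathways were examined by RNA-seq in WI-38, a diploid fibroblast line from human lung. They were the receptors FAS, TNFRSF10A, TNFRSF10B, TNFRSF10C, TNFRSF10D and TNFRSF1A, the adaptors TRADD and FADD, the kinase RIPK1 and the inhibitor CFLAR. The 10 genes were chosen by name for their place in the pathway, at a time when earlier results of these data were known, and all 10 were found among the 57773 genes counted. There were 4 groups with 3 libraries each. The proliferating group received a non-targeting siRNA (siCtrl) and was cultured for 8 days with the vehicle DMSO. The 3 senescent groups were treated for 8 days with 50 µM etoposide, which poisons topoisomerase II, damages DNA and drives these fibroblasts into senescence. They had been transfected with siCtrl, with a pool of siRNAs directed at NTRK2 mRNA, which encodes the neurotrophin receptor TrkB (siNTRK2), or with a pool directed at BDNF mRNA, which encodes its ligand (siBDNF). All groups carried an siRNA at 25 nM, and no group of proliferating cells received siNTRK2 or siBDNF. All libraries came from a single cell line at low population doublings, and each reports the RNA of the cells still present at the end of the culture.

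Death receptors are membrane proteins of the TNF receptor superfamily that carry a death domain in their cytoplasmic tail. When FAS or a TRAIL receptor binds its ligand, the death domain recruits the adaptor FADD, which brings in caspase-8 and can start apoptosis. TNFRSF1A first recruits TRADD and RIPK1, and the complex that forms can signal to NF-κB or, under other conditions, to caspase-8 or necroptosis. CFLAR, also called c-FLIP, resembles caspase-8 and limits its activation at these complexes. TNFRSF10A and TNFRSF10B (DR4 and DR5) transmit the TRAIL signal, whereas TNFRSF10C (DcR1) lacks an intracellular death domain and TNFRSF10D (DcR2) has a truncated one, so both are known as decoys. FAS and the TRAIL receptor genes are also known targets of the transcription factor p53, which DNA damage activates.

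The libraries held between 31567912 and 72328151 counts. Values are given as counts per 1000000 library counts (CPM) after TMM scaling, which adjusts for library composition, and 3 counts corresponded to between 0.0427 and 0.0916 CPM. Reads carried no molecular identifiers, so this floor covers counting error only. The labels were checked first. NTRK2 had 7, 15 and 10 counts in the senescent siCtrl libraries and 0 in all 3 siNTRK2 libraries, and BDNF mRNA averaged 162 ± 6.33 CPM (SD, n = 3) with siCtrl and 47.1 ± 2.44 CPM with siBDNF. BDNF averaged 158 CPM in proliferating cells and 205 CPM with siNTRK2. CDKN1A, the p53 target encoding p21, averaged 936 CPM in proliferating cells and 2877, 2032 and 2793 CPM in senescent cells with siCtrl, siNTRK2 and siBDNF. With siCtrl, CDKN2A and GDF15 were also higher in senescent cells, and LMNB1, MKI67, TOP2A and CCNB1 were lower. IL6, a senescence marker in the study, went the other way, from 7.96 CPM in proliferating to 6.71 CPM in senescent siCtrl cells. All 8 fibroblast markers were detected, with a summed level of 27110 to 28750 CPM in proliferating and 18080 to 20250 CPM in senescent siCtrl libraries. The leukocyte markers summed to at most 1.98 CPM in any library, the neural markers to at most 3.10 CPM and the endothelial markers to at most 3.14 CPM (1 of the 4 endothelial markers could not be matched). The epithelial markers summed to 17.1 to 19.5 CPM in proliferating and 46.4 to 57.4 CPM in senescent siCtrl libraries, nearly all of it KRT19. The mitochondrial share of counts was also unequal between groups, at 1.598 to 1.989% in proliferating and 3.33 to 3.65% in senescent siCtrl libraries. With siNTRK2 it was 2.502 to 2.848% and with siBDNF 1.782 to 2.381%, so the 3 senescent groups did not overlap. The fibroblast markers summed to 22590 to 25240 CPM with siNTRK2, above the other senescent groups, and to 19930 to 20420 CPM with siBDNF. The part of these differences in the results was not tested.

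Senescence was compared first, as senescent against proliferating cells with siCtrl. Of the 10 genes, 7 were higher and 1 was lower in senescent cells at an adjusted p under 0.05 in edgeR's quasi-likelihood test, in which each p is adjusted over all 21518 genes tested. Over all genes tested, 29.8% were called higher and 28.3% lower. All 4 TRAIL receptors, FAS, TRADD and CFLAR rose, FADD fell, and TNFRSF1A and RIPK1 were not called. With the study's further cutoff of an absolute log2 fold change over 1, TNFRSF10A, TNFRSF10C and TNFRSF10D remained (16.7% of all genes tested passed that cutoff). TNFRSF10A passed narrowly, at 1.06, and was as low as 0.975 when 1 library was left out. With a correction for GC content and transcript length it was at 0.83, or 1.03 relative to the shift of all genes under that correction. All 10 genes passed the filter on low counts. Because these are bulk samples, a difference cannot be divided into a change in the number of expressing cells and a change in mRNA per cell.

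The decoy TNFRSF10C (chr8:22960434-22974958, plus strand, hg19) showed the largest fold difference of the 10. It was measured at 3.34, 2.92 and 3.60 CPM in the proliferating libraries and at 15.5, 17.6 and 15.5 CPM in the senescent siCtrl libraries. Every senescent library lay well above every proliferating one, and the fitted difference was 4.99-fold (log2 fold change 2.32 ± 0.10 SE, adjusted p = 3.95e-16). The second decoy, TNFRSF10D (chr8:22993101-23021540, minus strand), rose from 251, 249 and 239 CPM to 659, 653 and 665 CPM. That is a 2.67-fold difference (log2 fold change 1.42 ± 0.04 SE, adjusted p = 1.02e-19). All 3 senescent values were far above the proliferating ones and lay close together.

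The signalling receptors rose by less. TNFRSF10A (chr8:23047965-23082615, minus strand) was at 5.20, 5.60 and 4.302 CPM in proliferating cells and at 10.7, 10.8 and 10.5 CPM in senescent cells, a 2.09-fold difference (log2 fold change 1.06 ± 0.10 SE, adjusted p = 1.02e-09). TNFRSF10B (chr8:22877646-22926544, minus strand) went from 166, 174 and 171 CPM to 252, 259 and 260 CPM. Its groups did not overlap either, and the difference was 1.505-fold (log2 fold change 0.59 ± 0.04 SE, adjusted p = 3.60e-12). The 4 TRAIL receptor genes lie next to each other and are similar in sequence, so the way shared reads were counted could move counts among them. TNFRSF10B also shares 377 exonic bases with RHOBTB2 on the opposite strand, which stood at 23.5 CPM in proliferating and 28.0 CPM in senescent cells. TNFRSF10A shares 266 exonic bases with TNFRSF10A-DT and 224 with TNFRSF10A-AS1, both on the opposite strand. These stood at 1.33 and 0.292 CPM in proliferating and 1.80 and 0.504 CPM in senescent cells.

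A ratio of raw counts within a library needs no scaling between libraries. The counts of the 2 decoys over those of the 2 signalling TRAIL receptors gave 1.48, 1.40 and 1.38 in the proliferating libraries and 2.57, 2.48 and 2.51 in the senescent siCtrl libraries. The means were 1.42 ± 0.0546 and 2.52 ± 0.0440 (SD, n = 3), with no overlap. TNFRSF10D supplied most of the decoy counts and TNFRSF10B most of the receptor counts, so the ratio describes mainly these 2 genes. It is a ratio of reads, not of molecules, since their transcripts differ in length.

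FAS (chr10:90750414-90775542, plus strand), the receptor of FAS ligand, was measured at 59.6, 57.0 and 57.8 CPM in proliferating cells and at 84.3, 84.7 and 86.1 CPM in senescent cells. All senescent values were higher, by 1.46-fold (log2 fold change 0.55 ± 0.05 SE, adjusted p = 3.62e-10). The start of ACTA2 overlaps FAS on the opposite strand over 380 exonic bases, and whether counting used strand is unknown. ACTA2 mRNA moved the other way, from 379 ± 26.2 to 287 ± 19.9 CPM (log2 fold change -0.40 ± 0.05 SE, adjusted p = 2.64e-07).

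Since FAS and the TRAIL receptor genes are known p53 targets, the first 3000 bases from each gene's start were searched for the p53 consensus element, on hg19. The element was taken as 2 adjacent copies of its 10-base repeat unit with no spacer, which reads the same on both strands, and up to 3 mismatches were allowed as long as the core C and G of each copy were kept. A match was found in 6 of the 10 genes and in 2766 of the 20723 windows of all tested genes, that is 13.3%. The genes with a match were FAS, TNFRSF10B, TNFRSF10C, TNFRSF10D, CFLAR and RIPK1, of which RIPK1 was not called in senescence. TNFRSF10A and TRADD rose in senescence and had no match. The match in FAS is shown as an example from a receptor that rose. It has 2 mismatches, as do the match in TNFRSF10B and the better of 2 matches in CFLAR. It starts 652 bases downstream of the gene's start, in intron 1 of the canonical transcript, and overlaps an exon of another annotated FAS transcript. It is printed with 40 bases on each side (chr10:90751026-90751125, plus strand, hg19), the 20 bases of the match in capitals.
FAS intron 1: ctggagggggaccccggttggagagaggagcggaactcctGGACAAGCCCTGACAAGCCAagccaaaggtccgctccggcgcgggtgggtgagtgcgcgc
TNFRSF10B, TNFRSF10C and TNFRSF10D each had 1 match in their own intron 1, at 390, 368 and 351 bases from the start, with 2, 3 and 3 mismatches. These 3 genes are neighbours of similar sequence, so their matches are not independent. A match describes the letters of the window only, and no binding was measured.

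**Figure D1:**
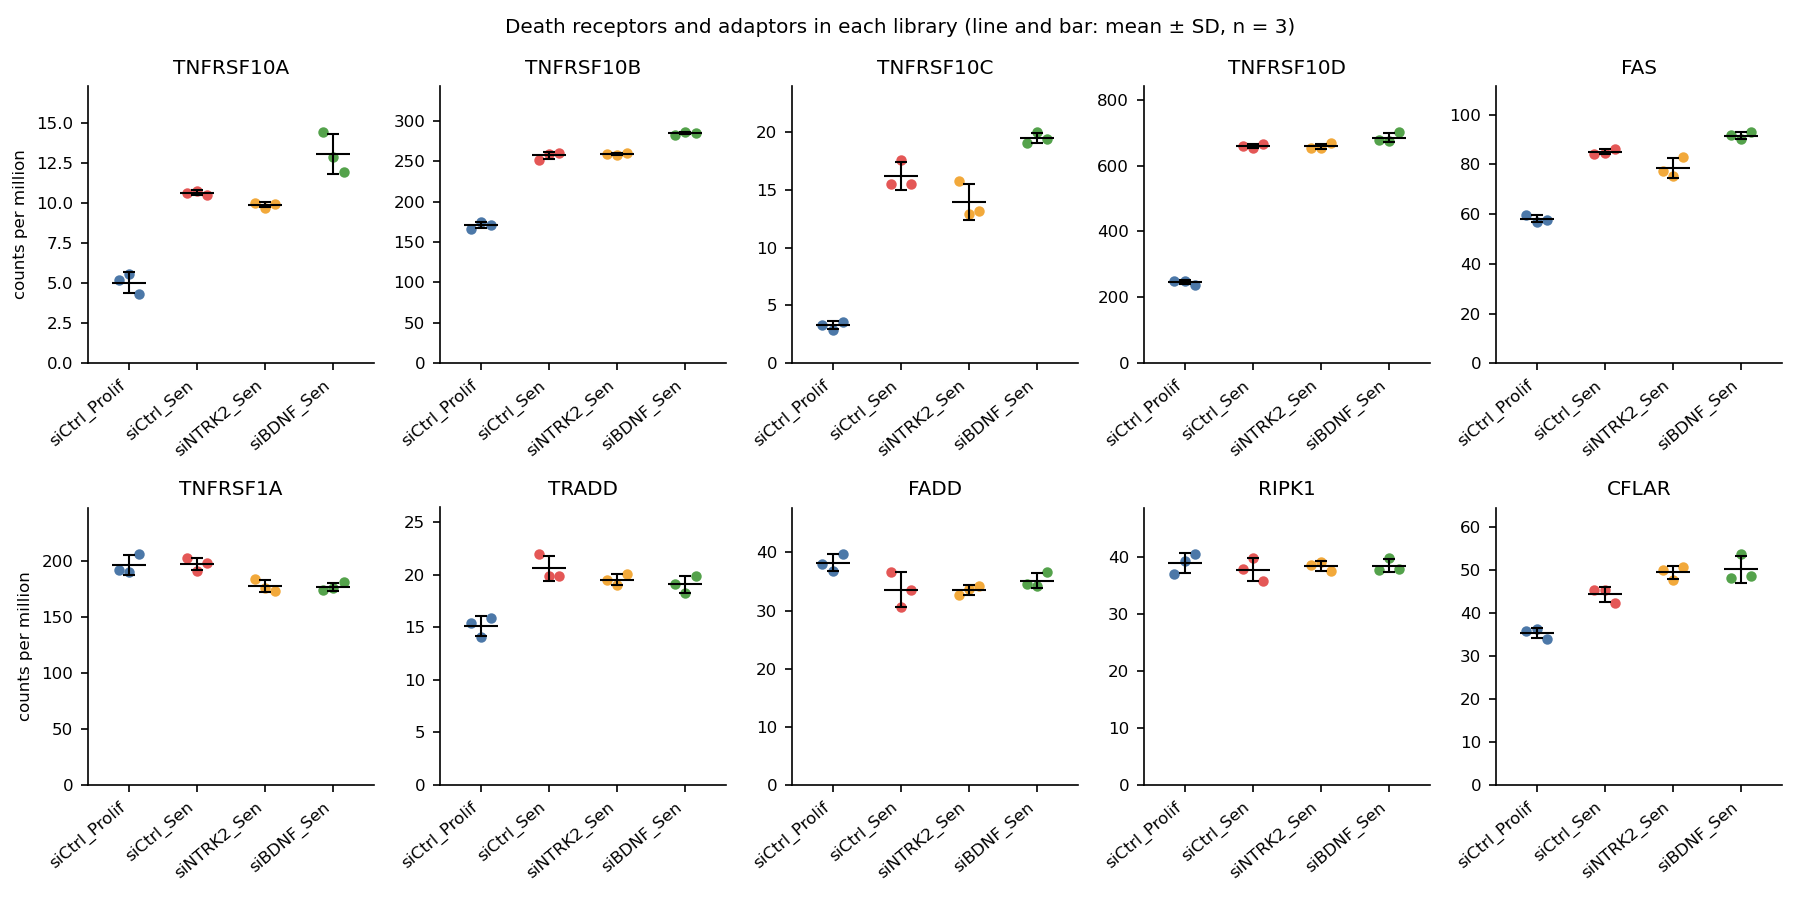
Level of each of the 10 genes in each of the 12 libraries, in CPM on linear axes that start at 0, by group; points are libraries and the line and bar are the mean and SD of 3 libraries. The TRAIL receptors and FAS sit higher in all senescent libraries than in the proliferating ones (TNFRSF10C 2.92 to 3.60 CPM against 15.5 to 17.6 CPM with siCtrl), whereas TNFRSF1A and RIPK1 overlap between these 2 groups.

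TNFRSF1A (chr12:6437923-6451280, minus strand), the main receptor of TNF, was not called in senescence. It was at 192, 190 and 206 CPM in proliferating cells and at 202, 191 and 198 CPM in senescent cells. The groups overlapped and the log2 fold change was 0.01 ± 0.04 SE (adjusted p = 0.890). Its adaptor TRADD (chr16:67188088-67193812, minus strand) rose from 15.4, 14.1 and 15.9 CPM to 22.0, 19.9 and 19.9 CPM, a 1.37-fold difference without overlap (log2 fold change 0.45 ± 0.07 SE, adjusted p = 5.98e-06). RIPK1 (chr6:3064058-3115421, plus strand), the kinase at the branch between survival and death signals, was at 37.1, 39.3 and 40.6 CPM and then at 37.9, 39.9 and 35.8 CPM. These groups overlapped too (log2 fold change -0.04 ± 0.06 SE, adjusted p = 0.542). Of the 3 genes of the TNF arm, TRADD was the 1 called, although a correction for GC content and transcript length called TNFRSF1A and RIPK1 lower (-0.21 and -0.26, adjusted p = 1.51e-05 and 4.08e-05). The same correction moved TRADD to 0.21, TNFRSF10B to 0.36 and FADD to -0.40, each still called, and shifted all genes by a median of -0.20. Relative to that shift the 3 stood at 0.41, 0.56 and -0.20.

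FADD (chr11:70049402-70053496, plus strand), the adaptor that FAS and the TRAIL receptors share, was the 1 gene that fell. It was at 38.1, 36.9 and 39.8 CPM in proliferating cells and at 36.6, 30.7 and 33.6 CPM in senescent cells. The highest senescent value was just below the lowest proliferating one, and the log2 fold change was -0.18 ± 0.06 SE (adjusted p = 0.0136). Without replicate 2 of the senescent siCtrl group, the lowest library, it was -0.14 and no longer called (adjusted p = 0.0729). FADD, with a canonical transcript of 1708 bases, shares 1011 exonic bases with an unnamed gene on the opposite strand. The level of that gene was not examined.

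CFLAR (chr2:201980877-202041410, plus strand) rose from 35.8, 36.2 and 34.0 CPM to 45.4, 45.2 and 42.3 CPM, a 1.25-fold difference without overlap (log2 fold change 0.33 ± 0.06 SE, adjusted p = 2.45e-05). The size of this difference depended on the treatment of transcript length and GC content, and so did its sign before the shift of all genes was considered. With an offset that removes a trend in both, fitted per library, the log2 fold change was -0.05 (adjusted p = 0.396). Relative to the shift of all genes under this offset, CFLAR stood at 0.15, TNFRSF1A at -0.01 and RIPK1 at -0.06. CFLAR shares 777 exonic bases with CFLAR-AS1 and 1488 with IMPDH1P10, both on the opposite strand, at 3.20 and 2.34 CPM in proliferating and 3.47 and 3.09 CPM in senescent cells. The raw counts of CFLAR over those of CASP8, the caspase it restrains, gave 2.54, 2.45 and 2.42 in proliferating and 3.83, 4.03 and 3.39 in senescent siCtrl libraries. CFLAR over FADD gave 0.940, 0.982 and 0.854 against 1.24, 1.48 and 1.26. Neither ratio overlapped between the groups, and both still carry any length or GC trend.

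**Figure D2:**
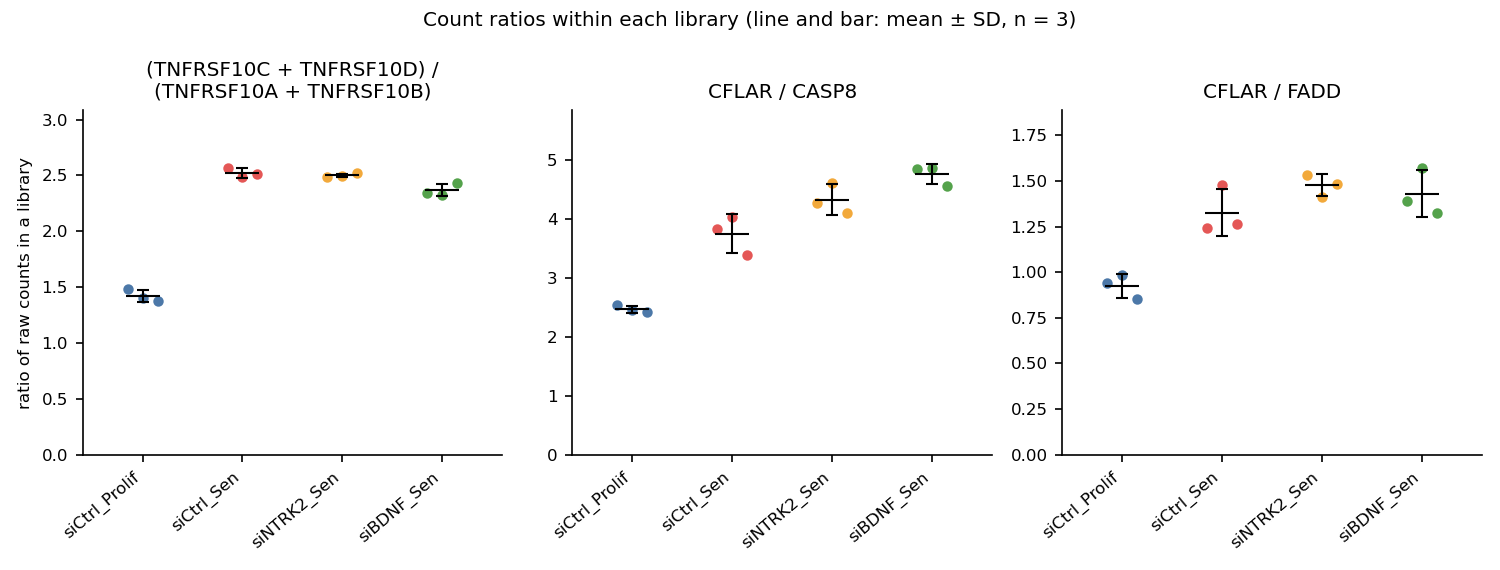
Ratios of raw counts within each library, on linear axes that start at 0, by group; points are libraries and the line and bar are the mean and SD of 3 libraries. The decoy to signalling TRAIL receptor ratio was 1.38 to 1.48 in proliferating cells and 2.33 to 2.57 in all 9 senescent libraries, and CFLAR over CASP8 was at most 2.54 in proliferating cells and at least 3.39 in senescent cells.

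Levels can be set side by side between genes only per length. In CPM per kilobase of the canonical transcript, the senescent siCtrl group had TNFRSF10D at 186 ± 1.602 (SD, n = 3), TNFRSF1A at 90.8 ± 2.53, TNFRSF10B at 64.3 ± 1.16, FAS at 33.2 ± 0.381 and FADD at 19.7 ± 1.75. TRADD at 13.9 ± 0.820, TNFRSF10C at 11.6 ± 0.845, RIPK1 at 9.25 ± 0.501, TNFRSF10A at 3.96 ± 0.0552 and CFLAR at 3.03 ± 0.118 followed. Neighbours in this order differed by more than their SDs between libraries. In proliferating cells TNFRSF1A came first at 90.3 ± 4.14 and TNFRSF10D second at 69.6 ± 1.84, while FAS at 22.7 ± 0.517 and FADD at 22.4 ± 0.860 did not differ beyond their spread, nor did RIPK1 at 9.54 ± 0.434 and TRADD at 10.2 ± 0.631. TNFRSF10C at 2.36 ± 0.245, CFLAR at 2.42 ± 0.0800 and TNFRSF10A at 1.87 ± 0.247 closed the order, the first 2 within their spread. These orders depend on the length chosen. Per kilobase of all annotated exons of a gene, TNFRSF10D at 69.6 came before TNFRSF1A at 46.6 in proliferating cells. In senescent siCtrl cells, TNFRSF10B at 51.3 then passed TNFRSF1A at 46.9, TNFRSF10C at 10.5 passed TRADD at 9.47, and TNFRSF10A at 3.64 passed RIPK1 at 3.11. TNFRSF10D stayed first and CFLAR last there, although shorter CFLAR isoforms than the canonical transcript of 14612 bases are known.

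NTRK2 silencing was compared next, as siNTRK2 against siCtrl in senescent cells. It left most of these genes near their siCtrl levels. CFLAR was called higher and TNFRSF1A lower, beside 11.1% of all genes tested called higher and 10.0% called lower, so the share of the 10 genes that was called lay near the background. TNFRSF1A was at 184, 176 and 174 CPM with siNTRK2, below all 3 siCtrl libraries, with a log2 fold change of -0.15 ± 0.04 SE (adjusted p = 0.0192). CFLAR was at 50.0, 47.7 and 50.7 CPM, above all 3 siCtrl libraries, with a log2 fold change of 0.16 ± 0.06 SE (adjusted p = 0.045). Both calls lay close to the threshold. The call of TNFRSF1A was lost without replicate 1 or 3 of siCtrl or replicate 2 or 3 of siNTRK2, where the adjusted p was 0.0987, 0.0784, 0.0625 and 0.0871. That of CFLAR was lost without replicate 1 or 3 of siCtrl or replicate 1 or 3 of siNTRK2 (adjusted p = 0.0748, 0.171, 0.104 and 0.152). With the length and GC offset neither was called (TNFRSF1A -0.07, adjusted p = 0.145; CFLAR 0.05, adjusted p = 0.519).

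The TRAIL receptors and FAS were not called with siNTRK2. TNFRSF10D was at 655, 652 and 667 CPM, which overlaps the siCtrl libraries (log2 fold change -0.00 ± 0.04 SE, adjusted p = 0.989). TNFRSF10B was at 259, 257 and 260 CPM, also overlapping (0.01 ± 0.04 SE, adjusted p = 0.891). TNFRSF10C was at 15.8, 12.96 and 13.2 CPM and gave a log2 fold change of -0.21 ± 0.09 SE (adjusted p = 0.0806), which passed the threshold without siNTRK2 replicate 1 (-0.31, adjusted p = 0.0142). FAS was at 77.2, 75.4 and 83.0 CPM, below every siCtrl library, with a log2 fold change of -0.11 ± 0.05 SE (adjusted p = 0.0887), and was called with the length and GC offset (-0.14, adjusted p = 0.0167) and without siNTRK2 replicate 3 (-0.16, adjusted p = 0.0396). TNFRSF10A at 9.99, 9.72 and 9.98 CPM, TRADD at 19.5, 18.99 and 20.1 CPM, FADD at 32.6, 33.7 and 34.2 CPM and RIPK1 at 38.6, 39.2 and 37.6 CPM had adjusted p-values of 0.472 to 0.972.

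BDNF silencing was compared in the same way with the same siCtrl libraries, so the 2 siRNA comparisons are not independent. TNFRSF10A, TNFRSF10B, TNFRSF10C and CFLAR were called higher and TNFRSF1A lower, beside 10.3% of all genes tested called higher and 10.2% lower. All of these differences were small. TNFRSF10B was at 283, 286 and 285 CPM, above all siCtrl libraries, by 1.11-fold (log2 fold change 0.15 ± 0.04 SE, adjusted p = 0.00975). TNFRSF10A was at 14.4, 12.9 and 11.9 CPM, also above all siCtrl libraries, by 1.22-fold (0.29 ± 0.09 SE, adjusted p = 0.0254). TNFRSF10C was at 19.1, 20 and 19.4 CPM, above the siCtrl libraries as well (0.27 ± 0.08 SE, adjusted p = 0.0251). TNFRSF10D, the other decoy, was at 679, 675 and 701 CPM, above the siCtrl libraries but not called (0.06 ± 0.04 SE, adjusted p = 0.366). FAS was at 91.7, 90.2 and 92.9 CPM, above every siCtrl library and likewise not called (0.11 ± 0.05 SE, adjusted p = 0.114). When libraries were scaled by their totals only, both were called (0.11, adjusted p = 0.031, and 0.16, adjusted p = 0.0134) and TNFRSF1A was not (-0.10, adjusted p = 0.0912). This scaling shifted all genes by a median of 0.057.

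TNFRSF1A was at 174, 176 and 181 CPM with siBDNF, below all siCtrl libraries (log2 fold change -0.16 ± 0.04 SE, adjusted p = 0.0142). CFLAR was at 48.1, 53.8 and 48.6 CPM, above them (0.18 ± 0.06 SE, adjusted p = 0.0222), and turned to -0.07 (adjusted p = 0.317) with the length and GC offset. TRADD at 19.1, 18.3 and 19.9 CPM, FADD at 34.6, 34.2 and 36.7 CPM and RIPK1 at 37.9, 39.8 and 38.0 CPM were not called (adjusted p = 0.313, 0.535 and 0.817). CFLAR was also among the genes that the study displayed as altered by silencing in these same samples, so its calls with both siRNAs are not independent evidence.

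Several of the siBDNF calls were lost when 1 library was left out. No call was lost without siCtrl replicate 2, and only that of TNFRSF10C without siBDNF replicate 3. The log2 fold change of TNFRSF10C stayed between 0.24 and 0.33 in these fits. The number of the 10 genes called was 5 with all libraries, 1 without siCtrl replicate 1, 1 without siCtrl replicate 3, 1 without siBDNF replicate 2 and 2 without siBDNF replicate 1. TNFRSF10C lost its call without any 1 of siCtrl replicates 1 and 3 and siBDNF replicates 1, 2 and 3 (adjusted p = 0.115, 0.110, 0.052, 0.101 and 0.0696). TNFRSF10A lost it without siCtrl replicate 1 or 3 or siBDNF replicate 1 or 2 (adjusted p = 0.0736, 0.0836, 0.154 and 0.066), and so did TNFRSF1A (0.0806, 0.0531, 0.0729 and 0.071). CFLAR lost it without siCtrl replicate 3 or siBDNF replicate 2 (0.123 and 0.187), and TNFRSF10B without siCtrl replicate 1 (0.0653). The directions of these 5 genes held in all 6 of these fits. How many of all genes tested lost their calls in these fits was not counted.

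**Figure D3:**
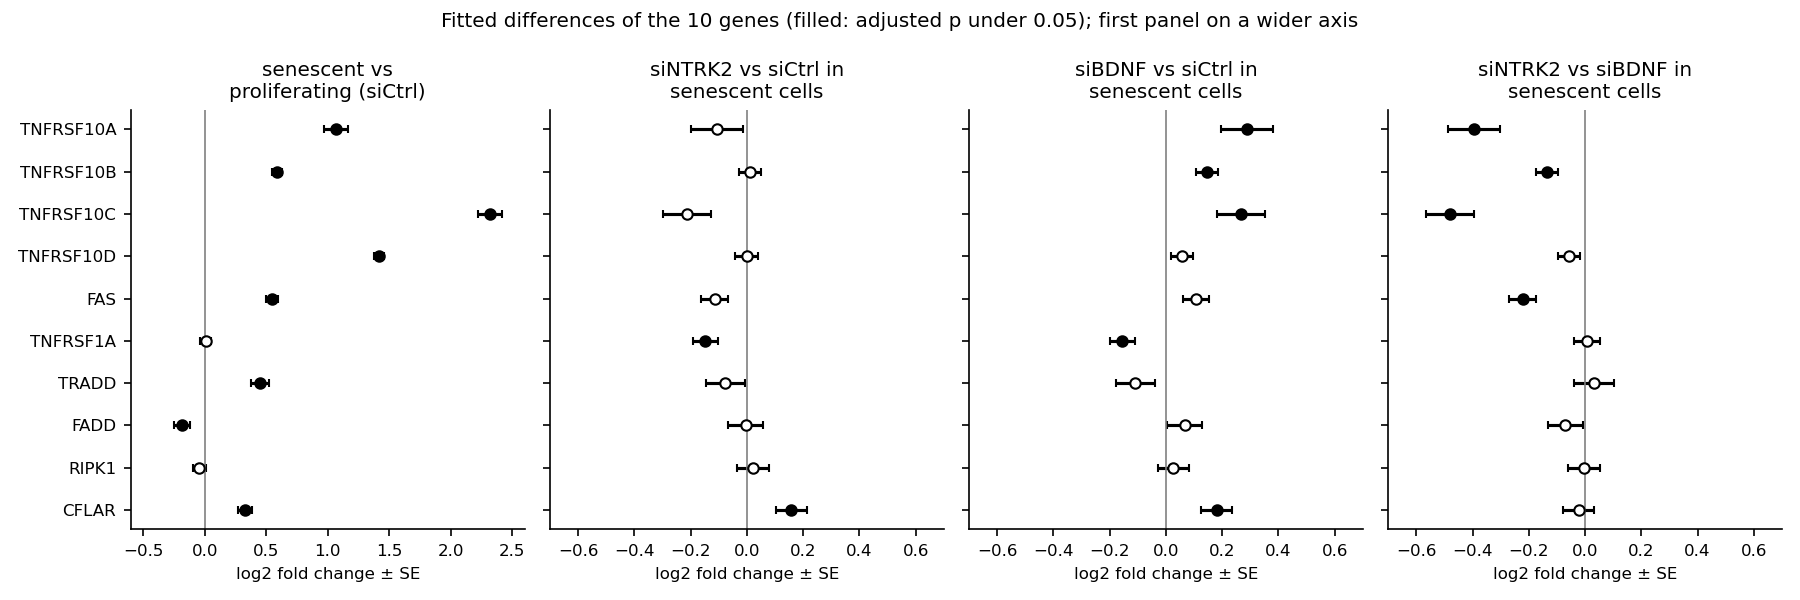
Log2 fold change of each of the 10 genes in 4 comparisons, with bars of 1 standard error; filled points have an adjusted p under 0.05, and the first panel has a wider axis than the other 3. The TRAIL receptors rose by 0.59 to 2.32 in senescence, whereas no difference in the other 3 panels exceeded 0.48 in size.

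The effects of both siRNAs were then compared with each other, as siNTRK2 against siBDNF. This fold change does not use the siCtrl libraries, which enter the test through the shared estimate of the spread. FAS, TNFRSF10A, TNFRSF10B and TNFRSF10C were lower with siNTRK2, and none of the 10 genes was called higher, beside 7.86% of all genes tested called lower and 8.84% higher. For TNFRSF10C the values were 15.8, 12.96 and 13.2 CPM with siNTRK2 and 19.1, 20 and 19.4 CPM with siBDNF (log2 fold change -0.48 ± 0.09 SE, adjusted p = 2.24e-04). For TNFRSF10A they were 9.99, 9.72 and 9.98 CPM against 14.4, 12.9 and 11.9 CPM (-0.39 ± 0.09 SE, adjusted p = 0.00351). For FAS they were 77.2, 75.4 and 83.0 CPM against 91.7, 90.2 and 92.9 CPM (-0.22 ± 0.05 SE, adjusted p = 0.00148). The groups did not overlap for any of the 3, and their calls held in all 6 fits that left out 1 library. TNFRSF10B differed by -0.14 ± 0.04 SE (adjusted p = 0.0195), and lost its call without siNTRK2 replicate 2 (0.0582) or siBDNF replicate 1, 2 or 3 (0.0732, 0.0817 and 0.0704).

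TNFRSF10D differed by -0.06 ± 0.04 SE (adjusted p = 0.357), and TNFRSF1A, TRADD, FADD, CFLAR and RIPK1 had adjusted p-values of 0.502 to 0.974. All siNTRK2 libraries lay below all siBDNF libraries for TNFRSF10D as well. Other genes that mark senescence and the cell cycle also differed between the 2 siRNAs. CDKN1A was lower with siNTRK2 than with siBDNF (-0.46 ± 0.04 SE, adjusted p = 9.38e-09), as was GDF15, another p53-responsive gene (-0.65 ± 0.05 SE, adjusted p = 1.97e-09). TOP2A, a gene of dividing cells, was higher, at 24.3 against 12.3 CPM (0.98 ± 0.07 SE, adjusted p = 3.19e-10). Their part in the receptor differences was not tested. ACTA2, which overlaps FAS, was higher with siNTRK2 (231 CPM) than with siBDNF (184 CPM), opposite to FAS. Against siCtrl, ACTA2 was lower with siNTRK2 (-0.31 ± 0.05 SE, adjusted p = 7.60e-05), the same direction as FAS (-0.11, not called). With siBDNF, ACTA2 was lower than with siCtrl too (-0.64 ± 0.05 SE, adjusted p = 3.03e-09), opposite to FAS.

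The genes whose 3 log2 fold changes (senescence, siNTRK2 and siBDNF against siCtrl) were nearest to those of a given member were found by Euclidean distance among 9722 named genes of at least 10 CPM. Those nearest to FAS were KDSR, GLTP and SLC35E1 (distances 0.0204, 0.0338 and 0.0395 on the log2 scale). Those nearest to TNFRSF10D were JUP, EPS8L2 and ULBP2 (0.0899, 0.139 and 0.145), and those nearest to CFLAR were BLZF1, TAX1BP1 and GTF3C1 (0.0253, 0.0344 and 0.0449). The distance is a description over 3 values per gene.

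The other genes of the pathway were followed in 5 lists. Of 9 ligand genes, TNFSF12 and TNFSF15 passed the filter on low counts and the other 7 did not. TNFSF14 was counted at 0 in all 12 libraries, TNF had 1 count in all, FASLG 34 and TNFSF10, which encodes TRAIL, 98. TNFSF10 was at 0 to 15 counts in every library but siBDNF replicate 2, where it had 32. TNFSF15 rose in senescence from 1.34 ± 0.0885 to 3.21 ± 0.638 CPM (log2 fold change 1.27 ± 0.17 SE, adjusted p = 4.36e-07). It rose further to 9.38 ± 0.789 CPM with siBDNF (1.54 ± 0.14 SE, adjusted p = 1.76e-08), but was at 3.07 ± 0.559 CPM with siNTRK2, so that siNTRK2 and siBDNF differed by -1.61 ± 0.14 SE (adjusted p = 7.42e-09). TNFSF12, which encodes TWEAK and was the other ligand tested, fell with siBDNF from 29.9 ± 2.89 to 21 ± 0.597 CPM (-0.51 ± 0.07 SE, adjusted p = 5.75e-06). With siNTRK2 it was at 26.2 ± 1.29 CPM and just passed the threshold (adjusted p = 0.0448), a call lost in 9 of 14 alternatives.

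Of the 11 other receptors and decoys, 5 rose and 3 fell in senescence, beside 29.8% higher and 28.3% lower over all genes tested, and the median log2 fold change was -0.01 beside 0.02. NGFR, the p75 neurotrophin receptor, had 12, 3 and 1 counts in proliferating and 88, 107 and 83 counts in senescent siCtrl libraries (log2 fold change 4.01 ± 0.39 SE, adjusted p = 2.42e-09). EDAR, a receptor of the ectodysplasin pathway, was counted at 0 in every proliferating library and at 9, 23 and 14 in the senescent ones, too few for a fold change. EDA2R, a related receptor, rose by 0.68 ± 0.07 SE (adjusted p = 1.22e-08). TNFRSF1B, the second TNF receptor, which lacks a death domain, fell from 14.8 ± 0.887 to 5.82 ± 0.514 CPM (-1.34 ± 0.11 SE, adjusted p = 1.02e-10) and was partly higher again with siBDNF, at 10.3 ± 0.347 CPM (0.81 ± 0.11 SE, adjusted p = 8.67e-06). TNFRSF11B, a soluble decoy also called osteoprotegerin that can bind TRAIL, fell in senescence from 207 ± 3.87 to 132 ± 3.41 CPM (-0.65 ± 0.05 SE, adjusted p = 7.92e-12). It then moved in opposite directions, to 166 ± 10.3 CPM with siNTRK2 (0.33 ± 0.05 SE, adjusted p = 1.06e-05) and to 113 ± 1.76 CPM with siBDNF (-0.22 ± 0.05 SE, adjusted p = 0.00140), and the difference between both was itself called (0.55 ± 0.05 SE, adjusted p = 3.98e-09). TNFRSF11B was the 1 gene of this list called with siNTRK2, beside 11.1% of all genes tested called higher and 10.0% lower. TNFRSF1B and TNFRSF11B were the 2 called with siBDNF, beside 10.3% higher and 10.2% lower. Between the siRNAs, TNFRSF1B was lower with siNTRK2 than with siBDNF (-0.52 ± 0.11 SE, adjusted p = 0.00131). NGFR, at 50, 65 and 61 counts with siNTRK2 and 56, 147 and 132 with siBDNF, was lower as well (-0.85 ± 0.27 SE, adjusted p = 0.0288) but lost its call in 4 of 13 alternatives. EDAR passed on 6, 0 and 6 against 19, 22 and 13 counts and lost its call in 6 of 12 alternatives.

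Of the 10 caspases and effectors, 9 were tested, and 2 rose and 4 fell in senescence (29.8% and 28.3% over all genes tested), with a median log2 fold change of -0.12. CASP6, an effector caspase, fell by 0.98 ± 0.10 SE on the log2 scale (adjusted p = 5.76e-09). CASP8, the initiator that FADD recruits, was at 14.3 ± 0.410 CPM in proliferating and 11.9 ± 0.630 CPM in senescent cells (-0.27 ± 0.08 SE, adjusted p = 0.00576). MLKL, the executor of necroptosis, rose by 0.55 ± 0.10 SE (adjusted p = 2.25e-05) and CASP9, the initiator of the mitochondrial pathway, by 0.51 ± 0.09 SE (adjusted p = 4.96e-05). With siNTRK2, CASP9 was lower than with siCtrl (-0.32 ± 0.09 SE, adjusted p = 0.0134), as was CASP10, a relative of CASP8, at 24, 12 and 12 counts against 38, 31 and 41 (-1.15 ± 0.38 SE, adjusted p = 0.0310). The CASP10 call was lost in 5 of 14 alternatives and that of CASP9 in 2. With siBDNF, none of the 9 was called by edgeR's test, beside 10.3% of all genes tested called higher and 10.2% lower. Of the 9, 2 had an unadjusted p under 0.05. The number called was 0 or 1 under the alternatives, DESeq2 included.

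Of the 26 genes of the TNF receptor complex and its ubiquitin regulators, 25 were found, and 8 rose and 9 fell in senescence (29.8% and 28.3% over all genes tested), with a median log2 fold change of 0.03. TRAF5, an adaptor of the TNF receptor family, fell from 10.0 ± 0.526 to 3.17 ± 0.206 CPM (-1.67 ± 0.12 SE, adjusted p = 1.03e-11). TNFAIP3, the ubiquitin-editing enzyme A20 and an NF-κB target, fell by 1.02 ± 0.10 SE (adjusted p = 1.99e-09) and MAP3K5, the kinase ASK1, by 0.76 ± 0.05 SE (adjusted p = 7.25e-12). TNIP1, a partner of A20, rose by 0.34 ± 0.05 SE (adjusted p = 1.10e-06). With siNTRK2, 7 genes rose and 3 fell, beside 11.1% and 10.0% of all genes tested, and 6 to 11 genes were called under the alternatives. TRAF5 was higher, at 5.89 ± 0.826 CPM (0.89 ± 0.12 SE, adjusted p = 8.96e-06), and BIRC2, the ubiquitin ligase cIAP1 that acts on RIPK1, was higher (0.34 ± 0.06 SE, adjusted p = 1.44e-04). TNIP1 and TRAF3 were lower (-0.28 ± 0.05 SE, adjusted p = 9.73e-05, and -0.26 ± 0.05 SE, adjusted p = 6.91e-04). With siBDNF, 8 rose and 2 fell, beside 10.3% and 10.2% of all genes tested, and 6 to 12 were called under the alternatives. BIRC2 was again higher (0.39 ± 0.06 SE, adjusted p = 3.55e-05), with XIAP, an inhibitor of caspases (0.36 ± 0.06 SE, adjusted p = 1.79e-04), TNFAIP3 (0.44 ± 0.10 SE, adjusted p = 0.00235) and TAB3, a partner of the kinase TAK1 (0.34 ± 0.08 SE, adjusted p = 0.00260). XIAP and TAB3 with siBDNF lost their calls with the length and GC offset. TRAF3 (-0.37 ± 0.05 SE), TNFAIP3 (-0.62 ± 0.10 SE) and TNIP1 (-0.26 ± 0.05 SE) were lower with siNTRK2 than with siBDNF, and TRAF5 was higher (0.73 ± 0.12 SE).

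Of the 14 modulators of the signalling complexes, 5 rose and 6 fell in senescence (29.8% and 28.3% over all genes tested), with a median log2 fold change of -0.15. PEA15, a death effector domain protein that can block FADD and caspase-8, rose by 0.54 ± 0.04 SE (adjusted p = 1.42e-10). DEDD2, another protein with that domain, rose by 0.84 ± 0.07 SE (adjusted p = 2.43e-10) and PIDD1, a p53-induced death domain protein, by 0.80 ± 0.08 SE (adjusted p = 3.52e-09). FAF1, a FAS-associated factor, fell by 0.57 ± 0.06 SE (adjusted p = 1.13e-08). CASP8AP2, a partner of caspase-8, was lower in senescence and higher again with either siRNA, at 7.30 ± 0.904 CPM in proliferating cells, 4.91 ± 1.147 CPM with siCtrl, 7.79 ± 0.0325 CPM with siNTRK2 (0.66 ± 0.13 SE, adjusted p = 7.12e-04) and 7.23 ± 0.947 CPM with siBDNF (0.54 ± 0.13 SE, adjusted p = 0.00461). FAIM2, an inhibitor of FAS signalling, was lower with siNTRK2 (-0.71 ± 0.22 SE, adjusted p = 0.0200) and with siBDNF (-0.97 ± 0.22 SE, adjusted p = 0.00258), at under 3 CPM throughout. ARHGDIB was higher with siNTRK2 (0.47 ± 0.13 SE, adjusted p = 0.00922), and DAP3 and PEA15 were lower with siBDNF (-0.23 ± 0.05 SE, adjusted p = 9.99e-04, and -0.20 ± 0.04 SE, adjusted p = 0.00193). Between the siRNAs, PEA15 was higher with siNTRK2 (0.17 ± 0.04 SE, adjusted p = 0.0105). DAP3 (0.15 ± 0.05 SE, adjusted p = 0.0384) and FEM1B (-0.20 ± 0.06 SE, adjusted p = 0.0252) also passed, and each lost its call in 6 of 14 alternatives.

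**Figure D4:**
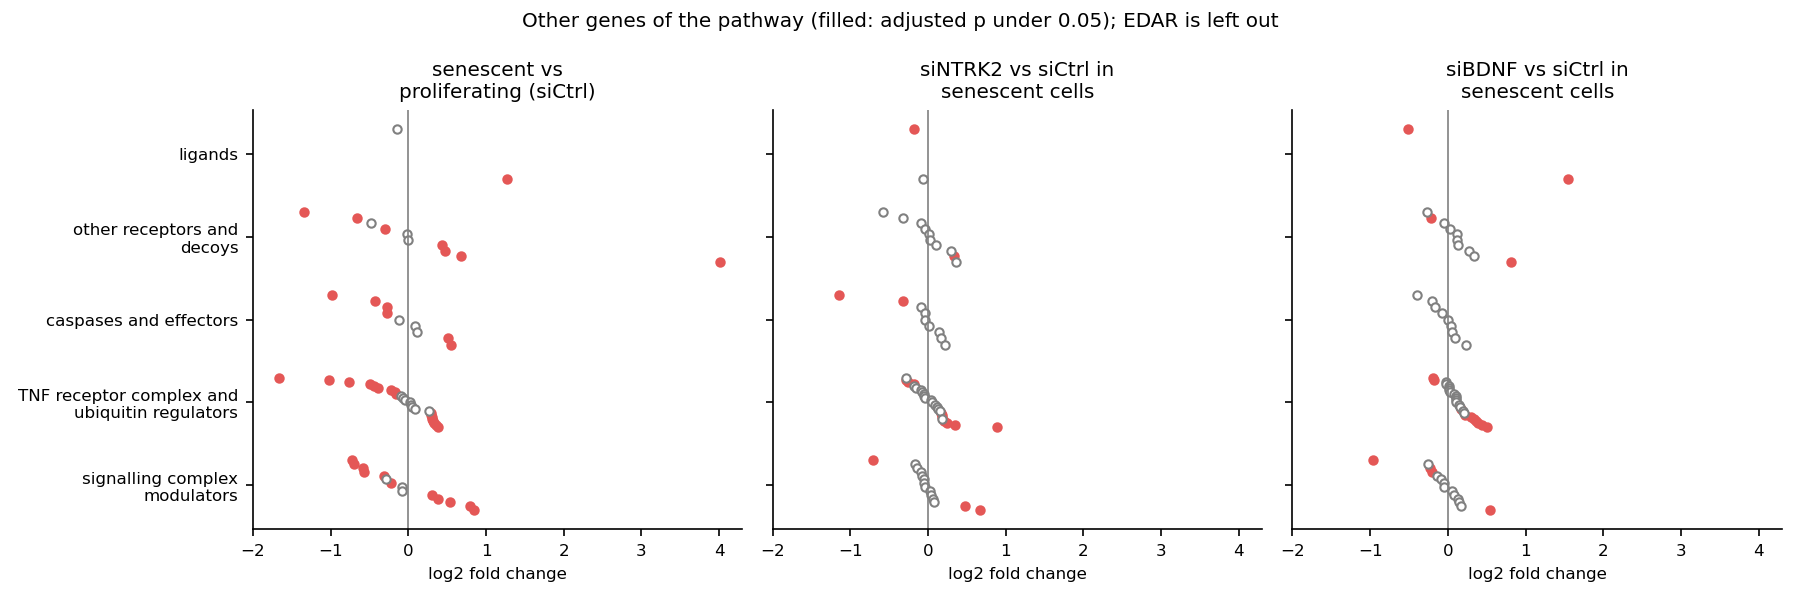
Log2 fold change of the other pathway genes tested, by list, in 3 comparisons; each point is a gene, filled where its adjusted p is under 0.05, and the heights within a list only separate the points. EDAR is left out because it was at 0 counts in all proliferating libraries. In senescence each of the lower 4 lists held genes that rose and genes that fell, with NGFR farthest right at 4.01 and TRAF5 farthest left at -1.67.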

How the data were processed

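RNA was sequenced from 12 WI-38 libraries made with a stranded mRNA kit, 3 in each of 4 groups taken from the labels. The authors deposited raw counts per Ensembl gene, 1 file per library, made with bcl2fastq 2.20.0.422, Cutadapt, STAR 2.4.0j (hg19) and featureCounts 1.6.4, with no normalization. The strand setting and the treatment of overlapping genes are not given in the sources used here. A symbol was found for 55538 of 57773 genes, and IKBKG and PECAM1 were not matched.

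Counts were analysed in R 4.3.3 with edgeR 4.0.16 (limma 3.58.1): TMM, filterByExpr over the 4 groups (21518 genes), a quasi-likelihood fit with 1 term per group to all 12 libraries, and Benjamini-Hochberg adjustment over all genes tested. A gene was called at an adjusted p under 0.05. The study's methods name DESeq2 (version 1.42.0 here), which was run as an alternative. Each standard error was obtained from the fold change and its F statistic. The study's methods describe independent experiments in general, and the labels do not say which libraries share one, so p-values measure the spread between these samples. No library repeated another (chi-square per gene of 3.92 or more within groups). The model was tested on simulated data, with changes put into the senescence comparison only. They were larger than any siRNA difference of the 10 genes, so the simulation does not cover differences of that size.

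The members, lists and tests were chosen with earlier results of these data known. Named were all 10 members, for each list and comparison up to 4 called genes with the smallest adjusted p, list genes at 0 counts in every library, and the 3 nearest genes by pattern of 3 members. FASLG, TNF, TNFSF10 and CASP8 were named outside this rule, after their values were seen. One list gene that the rule names is not reported here. Alternatives were other scalings, filters, tools, an offset for length and GC content, a replicate block and leaving out each library. Annotation and sequence came from GENCODE v44 on GRCh37 (hg19). Depth ranged from 31567912 to 72328151 counts.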

Additional observations from a re-analysis of the deposited data

Results flagged for a closer look

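The effects of siNTRK2 and siBDNF differed for 4 of the 10 genes in edgeR's direct test, each lower with siNTRK2. Over all genes tested, 7.86% were called lower and 8.84% higher with siNTRK2 than with siBDNF. The log2 differences were -0.48 for TNFRSF10C (adjusted p = 2.24e-04), -0.39 for TNFRSF10A (adjusted p = 0.00351), -0.22 for FAS (adjusted p = 0.00148) and -0.14 for TNFRSF10B (adjusted p = 0.0195). All 3 siNTRK2 libraries lay below all 3 siBDNF libraries for each of them. The same held for TNFRSF10D, which was not called (adjusted p = 0.357), so this separation does not set the 4 genes apart. How often it held over all genes was not counted. The difference of TNFRSF10B also lost its call without the filter on low counts (adjusted p = 0.0563) and with the length and GC offset (adjusted p = 0.0828). CDKN1A and GDF15 differed in the same direction and TOP2A in the other, and their part in these differences was not tested.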

How the results depend on the processing

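No call of the 10 genes changed with DESeq2's Wald test, with DESeq2 size factors in edgeR, with at least 10 counts in every library or with the replicate block. Replicate numbers did not pair the libraries (mean correlation 0.00184 between same-numbered libraries of different groups, from -0.0396 to 0.0270), and the fit with the block again called 8, 2, 5 and 4 genes in senescence, siNTRK2, siBDNF and siNTRK2 against siBDNF. With an absolute log2 fold change over 1, these counts were 3, 0, 0 and 0, and TNFRSF10A in senescence was near this cutoff at 1.06. Over all genes tested, 16.7%, 0.957%, 0.609% and 1.16% passed that cutoff. For siNTRK2, 1 gene was called without the filter on low counts, 1 with the length and GC offset and 1 with only the groups compared. Leaving out 1 library gave 7 to 8 genes in senescence, 0 to 2 with siNTRK2, 1 to 5 with siBDNF and 3 to 4 for the difference. The share of all genes called was counted with the main settings only, so the counts under alternatives have no such share beside them. With library totals only, siBDNF gave 6 genes higher and 0 lower in place of 4 and 1, and all genes shifted by a median of 0.057 in that comparison.

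Changes of sign mostly involved values near 0. With library totals only they were TNFRSF10D (0.017) and FADD (0.0144) with siNTRK2, and TNFRSF1A (-0.032) and TRADD (-0.0069) between the siRNAs. Without the filter they were TNFRSF1A in senescence (-0.00845) and TNFRSF10D (0.0126) and FADD (0.00953) with siNTRK2, with at least 10 counts TNFRSF1A between the siRNAs (-0.00247), and with only the groups compared TNFRSF10D with siNTRK2 (0.00125). The length and GC offset turned TNFRSF1A (-0.206, adjusted p = 1.51e-05) and CFLAR (-0.0484) in senescence, TNFRSF10D (0.0263), TRADD (0.0398) and FADD (0.0823) with siNTRK2, CFLAR (-0.0732) and RIPK1 (-0.00211) with siBDNF, and CFLAR (0.121) and RIPK1 (0.0534) between the siRNAs. It also called RIPK1 in senescence (-0.261, adjusted p = 4.08e-05). In that comparison the offset shifted all genes by a median of -0.20. Relative to this shift, RIPK1 stood at -0.06, TNFRSF1A at -0.01 and CFLAR at 0.15. The cause of the shift was not tested. Leaving out 1 library turned TNFRSF1A in senescence (-0.0289 to 0.0435), TNFRSF10B (-0.0051 to 0.0285), TNFRSF10D (-0.0129 to 0.0146), FADD (-0.0555 to 0.0607) and RIPK1 (-0.00869 to 0.0732) with siNTRK2, RIPK1 with siBDNF (-0.0106 to 0.071), and TNFRSF1A (-0.0175 to 0.0252), CFLAR (-0.0466 to 0.0371) and RIPK1 (-0.0158 to 0.0261) between the siRNAs. Of 738 fits of named list genes, 44 lost the call and 0 changed sign. Ligand mRNAs other than TNFSF12 and TNFSF15 were too rare at this depth to test.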
